A study of Rattus norvegicus with 56 samples.

Results

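Axon guidance ligands and receptors were represented in these rat neuronal cultures by 44 genes of 6 families, namely the semaphorins, plexins, Eph receptors, ephrins, Slits and Robos. The members were taken by gene symbol (Sema, Plxn, Epha, Ephb, Efna, Efnb, Slit and Robo followed by their number) through the RefSeq accession of each array probe. They were carried by 58 of the 45598 probes, out of 16581 genes with a symbol on the array, and each gene was followed on its brightest probe. The microarray series measured total RNA of primary hippocampal neurons from embryonic Sprague Dawley rats that received repetitive transcranial magnetic stimulation (rTMS) in the dish. A magnetic coil under the dish delivered pulses at 1 Hz or as intermittent Theta Burst Stimulation (iTBS), and sham dishes were kept away from the coil. Cells were harvested right after the session (0 h) or 2, 8, 24 or 48 h later. An untreated control was collected at 0 h alone. The 55 arrays used here fell into 16 groups of 2 to 4 arrays, with 4 control, 17 sham, 16 1 Hz and 18 iTBS arrays, and all of them shared strain, embryonic age, tissue and medium.

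Semaphorins are secreted or membrane-bound ligands that signal through plexins, the class 3 members together with neuropilins, and can repel or attract a growth cone. Ephrins and Eph receptors both sit in the cell membrane, so that cells in contact signal in both directions. In general A ephrins bind EphA receptors and B ephrins bind EphB receptors. Slits are secreted ligands of the Robo receptors and are best known as repellents at the midline. In the hippocampus these families are known for the layered targeting of fibres and later for the shape of dendritic spines.

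Of the 44 members, 42 were well above background on at least 3 arrays and were tested, namely 16 semaphorins, 4 plexins, 10 Eph receptors, 7 ephrins, 3 Slits and 2 Robos. The remaining 2 were Sema3g, a secreted class 3 semaphorin that was well above background on 2 arrays, and Epha1, a receptor of A ephrins that was so on 1 array. Sema3d was well above background on 34 of 55 arrays, Plxnb3 on 53, and Sema3c, Sema3e and Ephb2 on 54, and the other tested members on every array. Levels are given on a scaled log2 axis on which 1 unit is a 2-fold change on an array of median spread, and they compare arrays for the same probe, never one gene with another. On the brightest probes, the SD over the 55 arrays was smallest for Efnb3, a transmembrane B ephrin (0.24). It was largest for Plxnb3, a plexin receptor of Sema5a (2.20).

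The number that closes each sample description splits the arrays into 4 numbering series, called A (11 arrays), B (12), C (17) and D (15) here. The labels do not say whether these were separate cultures, and p-values measure only the spread between these samples. Among the members a median of 33.5% of the variance over arrays lay between the series, 12.1% between the times and 2.49% between the arms. Over the 13881 genes tested, the medians were 30.4%, 10.5% and 3.31%. Series A, B and C lay on slides of their own, with the hours running along the slides, whereas series D was spread over all 7 slides. Apart from the rest stood 3 arrays, 1 Hz 48 h replicate 1 and 1 Hz 8 h replicate 1 of series A and iTBS 0 h replicate 4 of series D. On these, 330 to 514 bright probes lay far below the median of their own series, against at most 60 on any other array. Neuron, astrocyte and oligodendrocyte marker genes were all well above background on 55 arrays, as were the dividing progenitor markers. Of 7 microglia markers, Cx3cr1, Itgam and C1qb were so on all 55 arrays, Aif1 on 32, C1qa on 25, Tmem119 on 21 and Csf1r on 7. Of 9 endothelial and fibroblast markers, 5 (Cdh5, Col1a1, Col1a2, Dcn and Lum) were so on all 55, Col3a1 on 54, Pecam1 on 53, Cldn5 on 6 and Flt1 on 4. In such bulk samples, fewer cells of a type and less RNA per cell cannot be told apart.

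**Figure D1:**
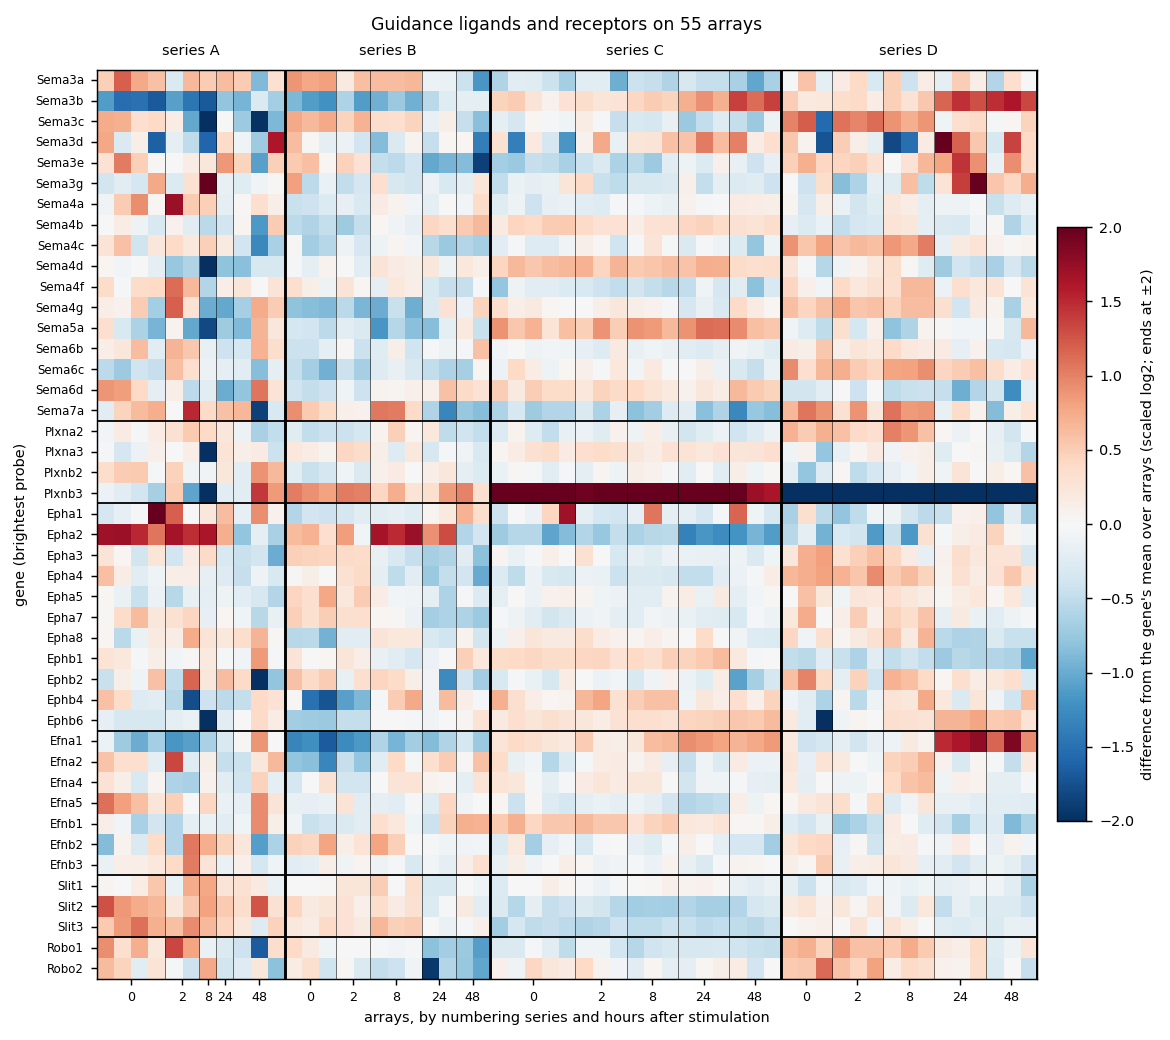
Level of each of the 44 members (rows, by family) on each of the 55 arrays (columns, by numbering series and hours after stimulation), as the difference from the gene's own mean in scaled log2 units. Plxnb3 is low on all arrays of series D and high in series C, Sema3b and Efna1 are high in series C and D, and Epha2 is high in most arrays of series A and B.

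Whether stimulation changed guidance genes was asked by setting 1 Hz and iTBS against sham at each of the 5 times. None of the 42 members passed the test in any of the 10 comparisons, in the averages over time or in the comparison of control with sham. At an adjusted p under 0.05 (limma), the share of all probes called in the 1 Hz comparisons, from the earliest time to the latest, was 0%, 0.0056%, 0.0028%, 0% and 0%. In the iTBS comparisons the shares in the same order were 0%, 0%, 0.0056%, 0% and 0%. The share was 0% for each of the 3 averages and 0.0028% for control against sham. The groups differ in their series: the controls came from A and C alone, and the sham arrays of 0 h from A, B, C and D. Likewise the 1 Hz arrays of 2 h came from C and D, and their sham arrays from A, B, C and D. With each series at each time as a block, 63 of 35694 probes were called for control against sham. That block gave 11 probes for iTBS at 0 h, 2 for iTBS at 8 h, 1 for 1 Hz at 8 h and 0 in the other comparisons. Without a block, 1 member was reached at an unadjusted p under 0.05 by 1 Hz at 0 h (321 of 35694 probes by limma). At 8 h 1 Hz reached 1 member (470 probes), iTBS at 0 h reached 2 (1405 probes), and no other comparison reached any. The block of each series at each time lowered the median SE (iTBS at 0 h from 0.34 to 0.17), yet no member passed. With it 1 Hz at 48 h reached 6 members at that unadjusted p (5133 probes) and iTBS at 0 h 6 (5794). iTBS reached 5 at 2 h (4062) and 4 at 48 h (3057), and the other comparisons at most 2. For 1 Hz at 48 h Sema4b had the smallest p (-0.55 ± 0.19, unadjusted p = 0.0076 and adjusted p = 0.22 by limma). All comparisons at a given time share the same sham arrays. The median difference of the 42 members lay between -0.14 (iTBS at 0 h) and +0.11 (1 Hz at 24 h), beside -0.06 and +0.01 over all genes tested.

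Among the ligands, Sema3d, a secreted class 3 semaphorin, gave the smallest p of any stimulation comparison. At 0 h its level was -2.75, -3.74, -4.21 and -4.30 on the 4 iTBS arrays and -1.96, -2.46, -2.39 and -2.04 on the 4 sham arrays. The arrays of both groups did not overlap, but none of the iTBS arrays was well above background while all 4 sham arrays were. In this scaling the mean level on the iTBS arrays was at least 1.55-fold lower than in sham, counted from the dimmest signal well above background (fitted difference -1.54 ± 0.53 SE, unadjusted p = 0.0054 and adjusted p = 1.00 by limma). Under other settings and with 1 array left out, the fitted difference ran from -1.87 to -0.29. Replicate 4 of iTBS at 0 h was 1 of the 3 arrays that stood apart. With each series at each time as a block, the difference was -1.54 ± 0.48 (adjusted p = 0.13 by limma). At 8 h Sema3d was at -2.50, -1.99 and -2.41 after iTBS and at -3.45, -2.33 and -4.38 in sham, where 1 of 3 arrays was well above background. The direction at 8 h was thus opposite to that at 0 h, with overlapping arrays and a difference of +1.09 ± 0.61 (unadjusted p = 0.080 by limma).

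Sema4a, a transmembrane semaphorin, was at 5.88 and 5.78 on the 2 arrays of 1 Hz at 2 h and at 5.97, 5.92, 7.87 and 6.0 in sham. The difference of -0.61 ± 0.33 (unadjusted p = 0.073 by limma) rested on the sham array of series A, and without it the difference was -0.13. Efnb2, a B ephrin, was at 0.65, 0.38, 1.43 and -0.03 after iTBS at 2 h and at 0.48, 0.07, -0.21 and 0.21 in sham, with overlapping arrays (+0.47 ± 0.28, unadjusted p = 0.099 by limma). Without a block, Efna4, an A ephrin, had the smallest p in both averages over time. It differed by +0.12 ± 0.09 for 1 Hz (unadjusted p = 0.18) and +0.12 ± 0.09 for iTBS (unadjusted p = 0.17, both by limma). It was also the member nearest to the threshold for control against sham, at 1.69, 1.52, 1.67 and 1.63 in the control and 1.05, 1.10, 1.38 and 1.59 in sham (+0.35 ± 0.18, unadjusted p = 0.056 by limma). With each series at each time as a block, that difference was +0.40 ± 0.15 (unadjusted p = 0.013 and adjusted p = 0.47 by limma).

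Among the receptors, Plxnb2, a plexin for class 4 semaphorins, was at 3.65, 3.89 and 3.33 after 1 Hz at 0 h and at 3.89, 4.62, 4.07 and 3.90 in sham. The highest stimulated array and the lowest sham array were both at 3.89 (-0.50 ± 0.22, unadjusted p = 0.029 by limma). Plxna3, a plexin that works with neuropilins, was at -0.14, 2.57, 2.98 and 2.91 after 1 Hz at 8 h and at 2.96, 3.06 and 2.77 in sham. The lowest of these was replicate 1, which stood apart on many probes, and the difference of -0.85 ± 0.36 (unadjusted p = 0.024 by limma) became -0.11 without the arrays that stood apart. Ephb2, a receptor of B ephrins, was at -2.81, -0.85, -1.13 and -0.12 after 1 Hz at 48 h and at -0.07, -1.52 and -0.25 in sham (-0.61 ± 0.40, unadjusted p = 0.14 by limma). Without series A, which held the lowest value, the difference was +0.19. Epha3, a receptor of A ephrins, was at 3.0, 3.18, 3.90 and 3.67 after iTBS at 48 h and at 3.54, 3.88 and 4.26 in sham (-0.46 ± 0.26, unadjusted p = 0.087 by limma), and its average over time was -0.18 ± 0.12 in iTBS against 1 Hz (unadjusted p = 0.15 by limma). Robo2 was at -0.05, 0.36 and 0.39 after 1 Hz at 24 h, at -0.27, 0.44 and 0.67 after iTBS and at -1.60, 0.13 and 0.41 in the sham arrays that both share. The differences of +0.59 ± 0.38 (unadjusted p = 0.13) and +0.63 ± 0.38 (unadjusted p = 0.10 by limma) included the low sham array of series B, replicate 1. Without it the 1 Hz difference was -0.04 and the iTBS difference +0.0098, with the iTBS array of series B then unmatched. The iTBS and sham arrays came from the same series, and iTBS was higher in B (-0.27 and -1.60), in C (0.44 and 0.13) and in D (0.67 and 0.41). With each series at each time as a block, the iTBS difference was +0.63 ± 0.24 (unadjusted p = 0.015 and adjusted p = 1.00 by limma).

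**Figure D2:**
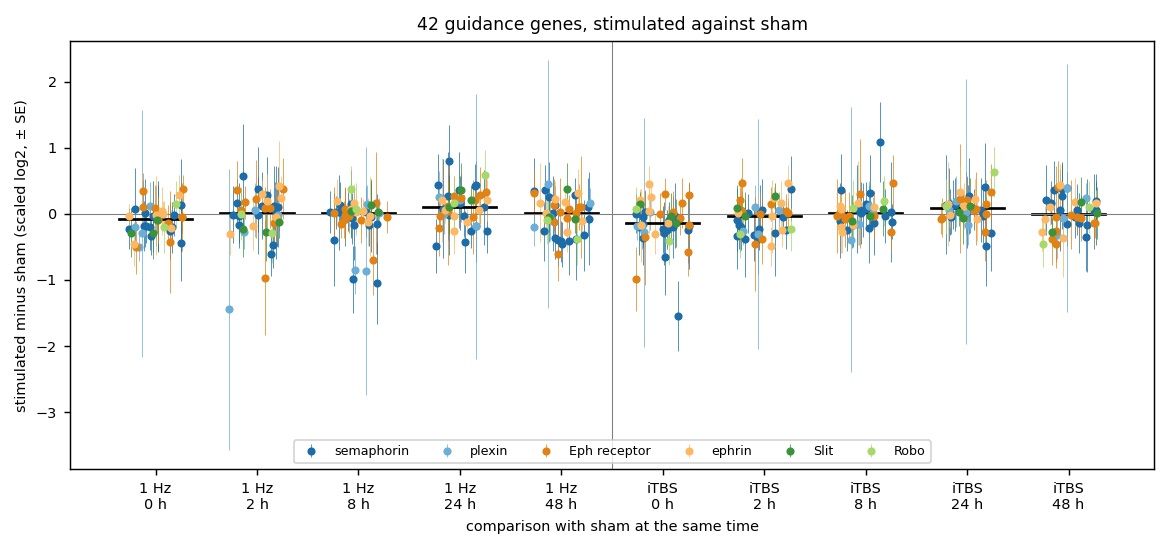
Difference between stimulated and sham cultures (vertical axis, scaled log2 units with the SE) for the 42 tested members in the 10 comparisons (horizontal axis), coloured by family, with black bars at the medians. The medians lie between -0.14 and +0.11, and the lowest points, Sema3d at -1.54 (iTBS at 0 h) and a plexin after 1 Hz at 2 h, carry wide errors.

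Some guidance genes moved with time after stimulation, in the average over the sham, 1 Hz and iTBS arms. Without a block, 3 of 42 members passed the test over all 5 times, namely Epha7 (adjusted p = 0.034), Epha3 (adjusted p = 0.036) and Efna1 (adjusted p = 0.042 by limma), where 8.16% of all probes were called. At 48 h against 0 h 7 members passed, 1 higher and 6 lower, where 10.8% of all probes were called, 6.13% higher and 4.7% lower. No member passed at the 24 h time (3.83% of all probes called), the 8 h time (0.219%) or the 2 h time (0%). With the numbering series as a block, 17 members passed over all times (27% of all probes) and 16 at 48 h, 4 higher and 12 lower (27% of all probes, 13.6% higher and 13.4% lower), including all 7 called without it. With that block 9 passed for 24 h (14%), 1 for 8 h (2.37%), which was Ephb4 (+0.77), and none for 2 h (0%). With the block, the 12 members lower at 48 h were 28.6% of the 42 and the 4 higher were 9.52%. Counted by gene rather than by probe, 2669 of the 13881 genes tested were higher and 1491 lower at 48 h with this block, and 4275 passed over all times.

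Efna1, a membrane-anchored ligand of EphA receptors, rose at 24 and 48 h. Its lowest, median and highest levels were 0.72, 1.96 and 2.71 among the 11 arrays of 0 h in these arms, 1.11, 2.10 and 2.90 among those of 2 h, 1.45, 2.36 and 3.05 among those of 8 h, 1.52, 3.25 and 4.16 among those of 24 h and 1.64, 3.15 and 4.24 among the 11 arrays of 48 h. The ranges overlapped, because series A and B were low throughout, but within each of the 4 series the mean was higher at 48 h. It went from 1.54 to 2.69 in series A, from 0.98 to 1.84 in B, from 2.64 to 3.14 in C and from 2.19 to 3.71 in D. The difference at 48 h was +1.07 ± 0.33 without a block (adjusted p = 0.033) and +1.02 ± 0.16 with the series as a block (adjusted p = 7.8e-06 by limma), and it was 1.26 in 1 Hz, 1.07 in sham and 0.88 in iTBS cultures.

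Sema3b, a secreted class 3 semaphorin, had the smallest p of all members over time once the series was a block (adjusted p = 5.1e-12 by limma). Its medians at the 5 times, from earliest to latest, were 1.71, 1.81, 1.97, 2.33 and 2.73, and its range went from -0.07 to 2.11 (0 h) to 0.68 to 3.23 (48 h). The mean rose from 0.03 to 0.98 in series A, from 0.54 to 1.44 in B, from 1.83 to 2.90 in C and from 1.92 to 3.09 in D. The difference at 48 h was +1.04 ± 0.08 (adjusted p = 3.2e-11 by limma) with the block and +0.98 ± 0.40 (adjusted p = 0.10) without it. It was 0.85 in 1 Hz, 1.05 in sham and 1.06 in iTBS cultures, and Sema3b was the 1 member that passed the test over time within sham with the series as a block (adjusted p = 9.8e-04 by limma, 3.3% of all probes called). Without the block no member passed within sham (0.0784% of all probes). There the smallest adjusted p in each family by limma were 0.94 for Robo1 and 0.97 for Robo2, 0.97 for Epha7 and 1.00 for Sema3d, Plxna2 and Efna1.

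Both Robo receptors of the Slits fell. Robo1 had a median of 2.20 at 0 h (range 1.48 to 2.71) and 1.56 at 48 h (range 0.32 to 2.33), and its mean went from 2.45 to 1.40 in series A, 2.15 to 1.06 in B, 1.73 to 1.54 in C and 2.58 to 1.96 in D. Robo2 had a median of 0.59 at 0 h (range -0.08 to 1.46) and 0.05 at 48 h (range -0.71 to 0.55), and was lower at 48 h in all 4 series. The differences at 48 h were -0.67 ± 0.22 (adjusted p = 0.042) for Robo1 and -0.60 ± 0.20 (adjusted p = 0.044, both by limma) for Robo2 without a block. They were -0.72 ± 0.15 (adjusted p = 5.5e-04) and -0.65 ± 0.15 (adjusted p = 0.0014, both by limma) with the series as a block. Of their ligands, Slit3 fell with the block alone (-0.29 ± 0.09, adjusted p = 0.013 by limma), while the brightest Slit2 probe was at -0.24 (adjusted p = 0.068) and its other probe at -0.34 (adjusted p = 0.0097 by limma), which passed.

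The Eph receptors that changed were mostly lower. Epha3, with a median of 4.24 at 0 h (range 3.63 to 4.82) and 3.70 at 48 h (range 3.0 to 4.26), was lower at 48 h in all 4 series (-0.56 ± 0.15, adjusted p = 0.011 by limma). Epha7, another receptor of A ephrins, went from a median of 1.97 (range 1.37 to 2.48) to 1.59 (range 1.00 to 1.70) and was lower in 3 of 4 series (-0.47 ± 0.14, adjusted p = 0.021 by limma). Ephb2, which also acts at excitatory synapses, went from -0.07 (range -0.78 to 0.53) to -0.85 (range -2.81 to -0.07) and was lower in all 4 series (-0.82 ± 0.23, adjusted p = 0.017 by limma). The other probes of Epha3 (-1.22), Epha7 (-1.10, -0.56 and -0.54) and Epha5 (-0.51, -0.44 and -0.79) were also lower with the series as a block. With that block the brightest Epha5 probe was at -0.29 (adjusted p = 0.030), and Ephb6, which lacks kinase activity, rose by 0.86 ± 0.28 (adjusted p = 0.019 by limma). The median 48 h difference with the block was -0.26 over the 10 Eph receptors, -0.11 over all 42 members and +0.03 over all genes tested.

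Of the semaphorins and plexins, Sema7a, a membrane-anchored semaphorin that also binds integrins, went from a median of 1.81 (range 0.47 to 2.25) to 0.41 (range -0.69 to 1.83) and was lower in all 4 series (-0.94 ± 0.30, adjusted p = 0.037 by limma). With the series as a block, Sema3a, the classical secreted repellent (-0.65 ± 0.17, adjusted p = 0.0053 by limma), and the transmembrane Sema4c (-0.44 ± 0.12, adjusted p = 0.0046 by limma) fell too. Plxna2, a plexin for class 3 and class 6 semaphorins, fell (-0.33 ± 0.11, adjusted p = 0.028), Plxnb2 rose (+0.30 ± 0.11, adjusted p = 0.035 by limma), and Efnb2 fell (-0.41 ± 0.15, adjusted p = 0.042 by limma). By family, 1 of 16 semaphorins, 1 of 4 plexins, 1 of 10 Eph receptors and 1 of 7 ephrins were higher at 48 h. In turn 3 semaphorins, 1 plexin, 4 Eph receptors, 1 ephrin, 1 of 3 Slits and both Robos were lower. Without the 3 arrays that stood apart 15 members passed with this block, 13 of them shared: Plxna2, Plxnb2 and Efnb2 were lost (adjusted p = 0.096, 0.082 and 0.10 by limma), and Sema3c (-0.93 ± 0.15) and Slit2 (-0.29 ± 0.10) were gained. The rise of Ephb6 was then smaller, at +0.50 ± 0.08 (adjusted p = 2.9e-05 by limma).

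Of the members nearest to the threshold over all times without a block, Sema4c had an adjusted p of 0.077, Sema7a 0.082 and Sema3d 0.11 among the semaphorins. Among the plexins these were 0.073 for Plxna2, 0.28 for Plxnb2 and 0.81 for Plxna3, and among the remaining families 0.081 for Ephb2, 0.082 for Efna4, 0.30 for Efnb2, 0.073 for Robo1, 0.13 for Robo2 and 0.67 for Slit1 (all by limma). The count at 48 h without a block was 3 without sham 0 h replicate 1, sham 48 h replicate 3 or 1 Hz 0 h replicate 3, 2 without sham 48 h replicate 2 or 1 Hz 0 h replicate 1, and 4 without sham 0 h replicate 4, iTBS 0 h replicate 1, iTBS 0 h replicate 4 or iTBS 48 h replicate 3.

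Time and slide ran together within series A, B and C, and their parts could be separated only in some arrays. With the slide as a block, 1 member was left at 48 h, and Sema3b was at +0.24 ± 0.43 and Efna1 at +0.95 ± 0.33 (adjusted p = 0.78 and 0.095 by limma). With both series and slide as blocks, chosen after the data were seen, 11 members passed at 48 h (16.6% of all probes), 9 of them among the 16 above, with 2 at 24 h (4.8%) and 10 over all times (20.7%). Sema3b (+0.99 ± 0.15), Efna1 (+1.09 ± 0.26), Robo1 (-1.02 ± 0.29), Epha3 (-0.73 ± 0.21), Ephb2 (-1.24 ± 0.44) and Sema7a (-1.32 ± 0.46) passed, while Robo2 (-0.46 ± 0.29, adjusted p = 0.29) and Epha7 (-0.53 ± 0.21, adjusted p = 0.081 by limma) did not. The summed level of the astrocyte markers, relative to the 75th percentile of each array, rose from a median of 149 (0 h) through 169 (24 h) to 190 (48 h), and 5 of 7 astrocyte genes rose by 48 h once the series was a block, where 13.6% of all probes did. The part of the astrocyte genes in the results was not tested.

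**Figure D3:**
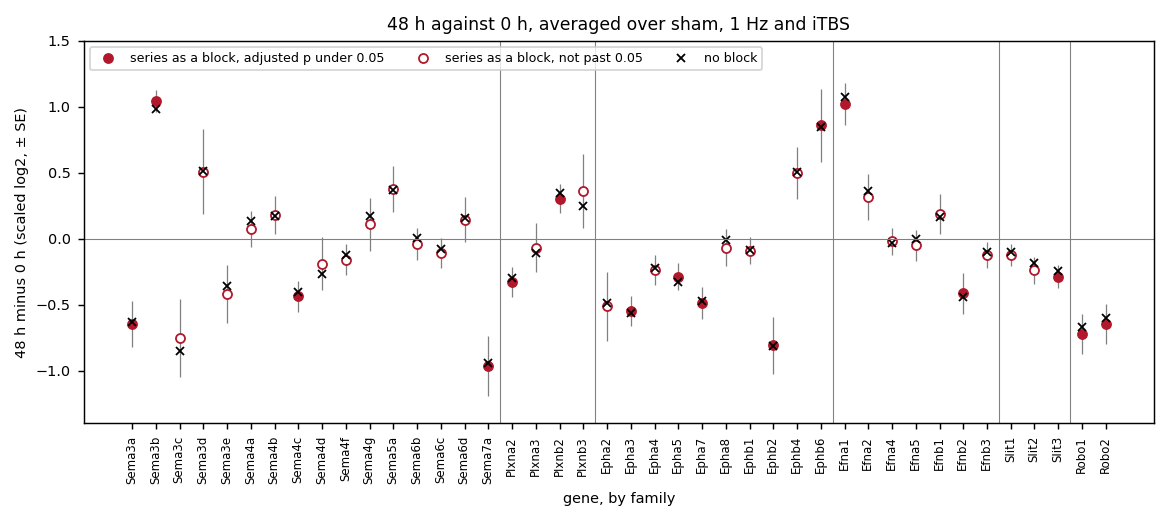
Difference between 48 h and 0 h, averaged over the sham, 1 Hz and iTBS arms (vertical axis, scaled log2 units with the SE), for the 42 tested members by family. Circles show the estimate with the numbering series as a block, filled where the adjusted p was under 0.05 (16 members), and crosses the estimate without a block; Sema3b and Efna1 are near +1 and both Robos below -0.6.

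**Figure D4:**
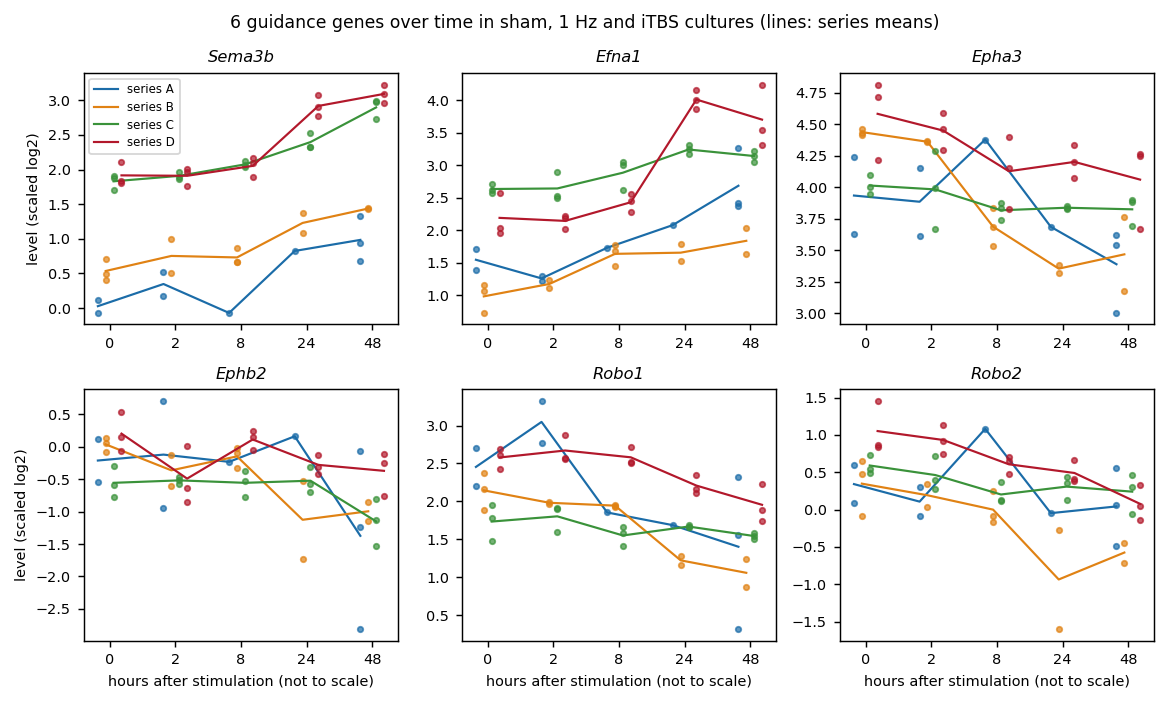
Levels of 6 members (vertical axis, scaled log2 units) by hours since stimulation ended (0 to 48, horizontal axis, not to scale), with a point for each sham, 1 Hz or iTBS array and a line through the means of each numbering series. Sema3b and Efna1 end higher at 48 h than at 0 h in all 4 series, and Epha3, Ephb2, Robo1 and Robo2 end lower.

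The bases before the annotated starts of Efna1, Robo1 and Robo2 are shown because Efna1 rose and both Robos fell at 48 h, and the RefSeq table holds an entry for each. The table held no entry for Sema3b. Each run gives the 250 bases before the start on the gene's own strand in the GRCr8 build, with capitals for 3 promoter motifs looked for on either strand, the GC box (GGGCGG), the CCAAT box (CCAAT) and the TATA box (TATAAA). The Efna1 region lies at chr2:176986822-176987071 on the minus strand, the Robo1 regions at chr11:24067706-24067955 and chr11:24714445-24714694 on the plus strand, and the Robo2 region at chr11:26526413-26526662 on the minus strand.
Efna1: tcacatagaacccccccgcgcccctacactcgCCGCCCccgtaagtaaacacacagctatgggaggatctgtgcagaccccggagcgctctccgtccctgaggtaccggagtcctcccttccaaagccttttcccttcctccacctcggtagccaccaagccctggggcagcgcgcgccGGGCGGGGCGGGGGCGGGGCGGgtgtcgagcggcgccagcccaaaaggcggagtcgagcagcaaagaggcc
Robo1, upstream start: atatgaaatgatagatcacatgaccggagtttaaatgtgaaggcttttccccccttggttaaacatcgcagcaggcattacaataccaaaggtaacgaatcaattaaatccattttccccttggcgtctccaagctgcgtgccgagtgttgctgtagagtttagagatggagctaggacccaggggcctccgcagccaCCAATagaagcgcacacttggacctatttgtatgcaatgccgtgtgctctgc
Robo1, downstream start: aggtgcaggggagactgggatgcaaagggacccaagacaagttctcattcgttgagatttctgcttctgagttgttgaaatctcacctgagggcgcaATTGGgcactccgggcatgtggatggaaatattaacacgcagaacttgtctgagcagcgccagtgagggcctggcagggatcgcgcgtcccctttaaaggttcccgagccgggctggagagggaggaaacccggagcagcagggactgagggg
Robo2: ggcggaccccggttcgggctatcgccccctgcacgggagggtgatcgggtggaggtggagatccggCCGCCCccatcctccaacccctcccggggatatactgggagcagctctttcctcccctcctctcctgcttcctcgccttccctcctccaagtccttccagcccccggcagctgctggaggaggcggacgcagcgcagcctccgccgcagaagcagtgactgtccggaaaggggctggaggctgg
Efna1 held 5 GC boxes, 4 of them in an overlapping run that is printed as 1 stretch of capitals. Each Robo1 start held 1 CCAAT box, in reverse at the downstream start, and Robo2 held 1 GC box in reverse. GC boxes were found in 19 of 36 member promoters and in 30.5% of all 33469 promoters, CCAAT boxes in 16 of 36 and 34.0%, and TATA boxes in 0 of 36 and 12.9%. Over the same 250 bases, the median share of G and C was 59.6% in member promoters and 51.2% in all promoters. Its part in these motif counts was not tested. A match is a description of the letters only.

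Larger differences lay between the numbering series. In the test over the 4 series, 36 of 42 members passed, or 85.7%, where 75.4% of all probes did. They were 15 of 16 semaphorins, 4 of 4 plexins, 8 of 10 Eph receptors, 4 of 7 ephrins, 3 of 3 Slits and 2 of 2 Robos. Series D differed from the mean of the other 3 in 23 members, 17 higher and 6 lower (53% of all probes called, 28.9% higher and 24.2% lower). Series C differed from the mean of A and B in 23 members, 13 higher and 10 lower (40.1%, with 20.3% higher and 19.8% lower). Series A differed from B in 18 members, 13 higher and 5 lower (30.4%, with 16.7% higher and 13.7% lower), a split that was 9 higher and 6 lower when arrays were scaled to their 75th percentile.

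Plxnb3 differed most. Its lowest, median and highest levels were -1.33, 0.68 and 2.31 in series A, 1.18, 1.73 and 1.94 in B, 2.54, 3.27 and 3.69 in C and -4.23, -2.10 and -1.13 in D. Series C lay above every array of the other series, and 1 array of A, 1 Hz 8 h replicate 1 that stood apart, lay within the range of D. In D 13 of 15 arrays were well above background. The difference of D from the other series was -3.98 ± 0.20 (adjusted p = 1.7e-19 by limma), and D lay below the other arrays on each of the 7 slides. Series C was higher than A and B by +2.13 ± 0.21 (adjusted p = 1.6e-10), and A was lower than B (-0.97 ± 0.29, adjusted p = 0.010 by limma). The summed level of the oligodendrocyte lineage markers moved alongside, with medians of 118 in A, 136 in B, 216 in C and 30.4 in D, and their ranges were 75 to 197, 114 to 236, 140 to 267 and 15.5 to 50.9. Of these 8 markers 7 were lower in D. The same order was seen in the summed dividing progenitor markers, with medians of 43.8 in A, 52.2 in B, 60.6 in C and 36.4 in D. By their means Sox2 and Hes5 followed it, and Mki67, Nes, Vim and Pax6 did not. The summed neuron markers ran in the reverse order, at 40.4, 33.6, 31.4 and 49.8. Single neuron markers were mixed: the means of Snap25, Syp, Gad1 and Gad2 ran in that order, and those of Rbfox3, Map2, Syt1, Nefl and Slc17a7 did not. The summed astrocyte markers had neither order, at 136, 165, 159 and 126. The summed endothelial and fibroblast markers were instead highest in D, at 33.1 to 54.3 against 2.90 to 11.3 in the others, with 6 of 9 higher in D. Among the others C was highest, with medians of 5.5 in A, 3.6 in B and 7.0 in C. In D the mean levels of Col1a1 (7.11) and Pecam1 (-0.15) were the highest of the series, and those of Cldn5 (-3.72), Cdh5 (-0.69) and Flt1 (-3.91) were not. The part of these cells in the results was not tested.

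Of the semaphorins, Sema3b had means of 0.46, 0.89, 2.21 and 2.38 in A, B, C and D. All arrays of C and D, from 1.71 upward, lay above all of A and B, which reached 1.44. The difference was +1.19 ± 0.06 for D (adjusted p = 1.3e-19) and +1.54 ± 0.06 for C against A and B (adjusted p = 2.7e-21 by limma), and D lay above the others on 6 of 7 slides. Sema6c, a transmembrane semaphorin, was highest in D, at 2.81 to 3.60, against 1.70 to 3.25 elsewhere (+0.80 ± 0.08, adjusted p = 7.3e-11 by limma). Sema5a, a transmembrane ligand of Plxnb3, was highest in C, with a median of 2.08 against 0.76 in A, 0.97 in B and 1.32 in D (C against A and B +1.2 ± 0.13, adjusted p = 2.2e-09 by limma). Among the other plexins, Plxna2 was higher in D (+0.46, adjusted p = 1.1e-05), and Plxnb2 was higher in A than in B (+0.36, adjusted p = 0.014 by limma).

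Of the Eph receptors, Epha4, which binds ephrins of both classes, was at 4.74 to 5.62 in D and at 3.67 to 5.28 elsewhere. D was higher by +0.72 ± 0.08 (adjusted p = 9.5e-10 by limma) and lay above the other arrays on 7 of 7 slides, and another Epha4 probe gave +0.59. Ephb1, a receptor of B ephrins, was at 3.13 to 3.97 in D and at 3.84 to 5.02 elsewhere (-0.69 ± 0.07, adjusted p = 1.8e-10 by limma), below the others on 7 of 7 slides. A different Ephb1 probe did not show this (-0.01, adjusted p = 0.95 by limma), so the Ephb1 result holds for its brightest probe. Epha2, a receptor of A ephrins, had medians of 1.68, 0.97, -0.55 and 0.03 in A, B, C and D and was lower in C (-1.70 ± 0.20, adjusted p = 5.9e-09 by limma). Its A and B arrays spread from -0.59 to 1.94 and overlapped with those of C, which reached -0.28.

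Of the ephrins, Efna1 had means of 1.95, 1.43, 2.89 and 2.90 in A to D (D +0.80, C against A and B +1.2). Efnb1, a transmembrane B ephrin, was lower in D (-0.47, adjusted p = 3.6e-04) and higher in C (+0.41), and Efna5, an A ephrin, was lower in C (-0.39, adjusted p = 5.6e-04 by limma). Efna5 was also higher in A than in B (+0.44, adjusted p = 0.0061 by limma), and its other probes had the same directions. The brightest Efnb3 probe did not differ in D (-0.05, adjusted p = 0.61 by limma). Its other probe was higher there (+1.00 ± 0.14, adjusted p = 1.5e-07 by limma), so the small spread of Efnb3 holds for its brightest probe.

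Slit2 and Slit3 were lowest in C and Slit1 in D (-0.30, adjusted p = 5.5e-05 by limma). Slit3 was at 4.69 to 5.03 in C, below every array of A (5.12 to 6.48), B (5.25 to 6.05) and D (5.08 to 5.64). The difference of C from A and B was -0.91 ± 0.07 for Slit3 (adjusted p = 5.4e-14), -0.90 ± 0.08 for Slit2 (adjusted p = 2.1e-12 by limma) and -0.17 for Slit1 (adjusted p = 0.026 by limma). Each Slit was also higher in A than in B, by +0.24, +0.50 and +0.37 for Slit1, Slit2 and Slit3. Robo1 had means of 2.18, 1.73, 1.66 and 2.40 and Robo2 of 0.34, -0.13, 0.36 and 0.63, and both were higher in D (+0.57, adjusted p = 4.2e-05, and +0.48, adjusted p = 2.8e-04 by limma). Both were also higher in A than in B (+0.47 and +0.43).

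**Figure D5:**
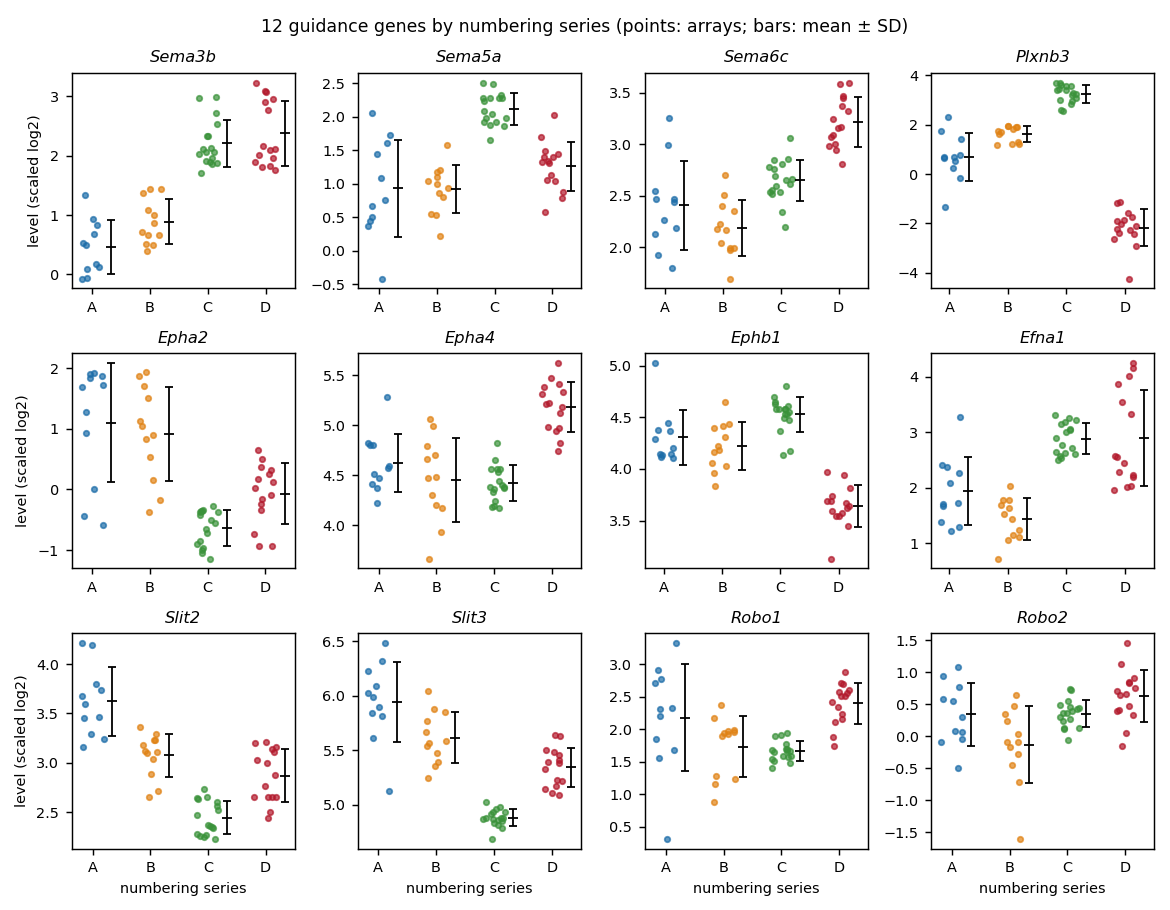
Levels of 12 members (vertical axis, scaled log2 units) in the 4 numbering series, with a point for each array and a bar for the mean ± SD. For Plxnb3, D (-4.23 to -1.13) lies below all but 1 of the other arrays, an array of A at -1.33, Sema3b separates C and D from A and B, and Slit3 is lowest in C.

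With the slide as a block, 31 members passed over the 4 series, all of them among the 36, and 22 of the 23 calls for D were kept. For C 16 members passed, with 13 of the 23 calls kept. Kept were Sema3b (+1.23), Sema5a (+1.33), Plxnb3 (+1.88), Epha2 (-3.44), Efnb1 (+0.80), Slit2 (-0.61) and Slit3 (-0.91), while Efna1 (+0.55 ± 0.24, adjusted p = 0.081), Efna5 (-0.10, adjusted p = 0.76) and Slit1 (-0.27, adjusted p = 0.17 by limma) were lost. No member then differed between A and B, which share no slide. The test of a different time course in each series, added after the data were seen, was passed by 23 of 42 members and by 39.4% of all probes, and 7 of the 17 members that changed over time with the series as a block were among them.

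Of 64 other genes of guidance pathways that were tested, drawn from 5 lists, 49 passed over the 4 series, where 75.4% of all probes did. They were 1 of 6 netrins and related ligands, 5 of 6 DCC and UNC5 receptors, 5 of 5 neuropilins and semaphorin co-receptors, 30 of 35 signal transducers and 8 of 12 growth cone genes. Met, a receptor tyrosine kinase that can join plexin B receptors, had the smallest p (D +1.18 ± 0.06, C against A and B +0.85 ± 0.06, adjusted p = 1.8e-20 over the series by limma). Pak1, a kinase downstream of Rac, followed (D +0.60 ± 0.06, adjusted p = 8.0e-11 over the series by limma). At 48 h without a block, 1 transducer was higher, and 1 netrin ligand, 2 receptors of the DCC and UNC5 list, 1 co-receptor, 6 transducers and 3 growth cone genes were lower, where 6.13% of all probes were higher and 4.7% lower. The smallest p over time were those of Ntn4, a netrin of basement membranes (adjusted p = 0.0014 over all times, +0.51 ± 0.20 at 48 h), and Enah, an actin regulator of growth cones (adjusted p = 0.0020 over all times, +0.38 ± 0.09 at 48 h by limma). With the series as a block, 2 of 6 netrins, 3 of 6 DCC and UNC5 receptors, 2 of 5 co-receptors, 12 of 35 transducers and 8 of 12 growth cone genes changed over time, where 27% of all probes did. The 8 growth cone genes called at 48 h were all lower, where 13.4% of all probes were lower and 13.6% higher. None of the 64 genes passed in the stimulation comparisons.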

How the data were processed

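Total RNA of 56 cultures was hybridised by the authors to 1-colour Agilent arrays, and the deposited scanner files hold each spot's processed signal intensity, background-corrected by the feature extraction software. The deposited value table holds a score made by the authors, the z-score of the log intensity within each array, and z-scores recomputed from the scanner intensities differed from it by at most 0.005.

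Spots of a probe were averaged without spots marked as outliers, log2 values were z-scored within each array and scaled back by the median array SD (4.06), and 420 probes with no value were left out. Array 1 Hz 2 h replicate 2, whose grid was marked bad, was left out. Tested were 35694 probes well above background on at least 3 of the 55 arrays. Between 66.1% and 81.8% of probes were well above background per array, no spot was saturated, and the number of arrays limits the precision.

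Group means were fitted across all probes in R 4.3.3 with limma 3.58.1 (lmFit and eBayes), with Benjamini-Hochberg adjustment over all probes and a threshold of 0.05, and series were compared in a model with group and series. The thresholds of the study's methods (one-way ANOVA over probes, then z-test, false discovery rate and z-ratio) were applied here as an alternative, not in the study's own program. They called 0 to 7 of 45178 probes per comparison. The paper reports far more changed genes for each stimulation comparison of these cultures, so its counts were not reproduced here. The reason for the gap was not tested. The scripts were tested on simulated data. Figures were drawn with matplotlib 3.10.9 in Python 3.11.15.

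Members and lists were chosen with earlier results of these data known. Named were all members past the threshold in a stimulation comparison or else the member with the smallest p without a block. Also named were the 3 members of each family (Slits and Robos together) with the smallest adjusted p over time, within sham and over the series. Members well above background on fewer than 3 arrays and the 2 other pathway genes with the smallest p were named too. Any other gene was chosen after its values were seen. RefSeq symbols were found for 46.3% of probes, and 15 guidance genes that RefSeq lists were matched by no probe. In the alternative background correction the median spot signal took the place of the mean signal. Replicate numbers are shared between groups but did not by themselves pair the arrays. Of 373 same-number pairs 215 correlated above 0.1, namely 156 of 162 from the same series and 59 of 211 from different series. Among pairs of the same series with different numbers, 190 of 198 did.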

Additional observations from a re-analysis of the deposited data

Results flagged for a closer look

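Of 11 groups that could be tested with Dixon's test, 2 held an array far from the others. The groups were those of the member with the smallest p in each comparison, chosen on the same values. The usual rate of about 1 in 20 by chance therefore does not apply to them. For Sema4a in sham at 2 h, the gap of the highest array (7.87) to the nearest (6.0) was 0.959 of the group's range. For Plxna3 after 1 Hz at 8 h, the gap of the lowest array (-0.14) to the nearest (2.57) was 0.869 of the range, and that array is 1 of the 3 that stood apart on many probes.

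A set of 24 members was looked at for a time course that differs between the numbering series. It held the 3 members of each family with the smallest p over time and within sham. Every member called over all times with the series as a block was added. For 9 of the 24 the time course differed between the series (limma, test of the interaction added after the data were seen), where 39.4% of all probes did. Their adjusted p were 3.7e-07 for Plxna3, 9.0e-04 for Efna1, 0.0019 for Epha8, 0.0029 for Sema4f, 0.0065 for Plxna2, 0.0073 for Epha7, 0.019 for Epha4, 0.042 for Epha3 and 0.042 for Ephb4. For Plxna3 it was 0.19 without the 3 arrays that stood apart. Ephb6 (adjusted p = 0.045), Epha5 (0.041) and Sema3c (0.0016 by limma), named above for 48 h but not among the 24, passed the interaction test as well. The means of Efna1 rose between 0 h and 48 h by 0.51 in series C and by 1.52 in series D.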

How the results depend on the processing

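The counts below are of members past the threshold. No member passed in any stimulation comparison under any setting, apart from 22 for 1 Hz at 2 h with all 56 arrays, when the array with the bad grid entered. At 8 h against 0 h the count of 0 became 1 with a block for the series and 4 with that block but without the 3 arrays that stood apart. At 24 h the count of 0 became 1 with the 75th percentile, 2 with quantile scaling, 2 with normexp, 1 with probes well above background on every array, 1 without series C, 1 without the 3 arrays, 3 with the replicate block, 9 with the series block, 10 with that block without the 3 arrays, and 2 with series and slide as blocks. At 48 h the count of 7 became 16, 15 and 11 in the last 3 settings, 1 with the slide as a block, 0 with 56 arrays, and 3, 0, 4 and 1 without series A, B, C and D. The test over all times went from 3 to 17, 18 and 10 in the same 3 settings, 6 with the 75th percentile, 10 with the replicate block, 0 with 56 arrays, and 0, 1 and 0 without series A, B and D; within sham it went from 0 to 1, 4 and 2. Among the series, 56 arrays gave 15 for D, 12 for C, 5 for A against B and 19 over all, the replicate block 15 for D, and the slide block 0 for A against B. The cause of these changes was not tested.

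Leaving out 1 array gave 0 to 3 members at 24 h, 2 to 9 at 48 h, 0 to 6 over all times, 21 to 25 for D, 18 to 26 for C, 13 to 19 for A against B and 34 to 37 over the series. Over all times the count was 0 without sham 0 h replicate 1, sham 48 h replicate 2, 1 Hz 0 h replicate 1, 1 Hz 2 h replicate 3 or iTBS 0 h replicate 1. It was 1 without sham 0 h replicate 2, sham 48 h replicate 3, 1 Hz 0 h replicate 3, 1 Hz 24 h replicate 2 or 1 Hz 48 h replicate 1 or 3. It was 5 without sham 2 h replicate 2, sham 8 h replicate 2, 1 Hz 0 h replicate 2 or 1 Hz 2 h replicate 1, and 6 without 1 Hz 48 h replicate 4. At 24 h it was 3 without iTBS 0 h replicate 2, 2 without sham 0 h replicate 3, sham 24 h replicate 1 or 1 Hz 0 h replicate 2, and 1 without any of 7 other arrays.

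Reversed were Robo2 for 1 Hz at 24 h (from -0.036 to +0.97 with 1 array left out, -0.036 without sham 24 h replicate 1 and likewise -0.036 without series B), Ephb2 for 1 Hz at 48 h (+0.19 without series A and +0.036 with each series at each time as a block and without the 3 arrays), and, with 56 arrays, Efna4 in the 1 Hz average (-0.079), Epha3 in iTBS against 1 Hz (+0.27) and, for A against B, Efna5 (-0.039) and Slit3 (-0.19). Of 729 values of named members under other settings, 642 kept direction and side of the threshold, 79 lost the threshold and 1 passed it. Scaling to the 75th percentile moved the median of all probes for A against B from +0.04 to -0.10, and called members kept their direction under all 4 scalings. The thresholds of the study's methods, as applied here, called 0 members in each of the 10 stimulation comparisons and 0 to 7 of 45178 probes. The paper's own counts of changed genes are far larger and were not reproduced. Each of the 55 arrays correlated best with an array of its own series, and 35 with one of its own number. The replicate block (10 over all times, 3 at 24 h) joins arrays by number, and 162 of the 373 same-number pairs also shared the series. Precision is limited by 2 to 4 arrays a group, by Sema3d lying near background, and by slide running with time within series A to C.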
